A study of Homo sapiens with 12 samples.

Results

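The response of acute myeloid leukemia cells labelled as UTX knockout to a DOT1L inhibitor was followed across all genes. It was read in 8 of the 12 libraries of the series, chosen by guide and treatment. That choice and the gene lists below were made with earlier results of these data known. The 4 treated libraries held RNA of OCI-AML2 cells given 1 µM SGC0946 for 6 days, and the 4 vehicle libraries held RNA of the same cells given DMSO for 6 days. In each treatment 2 libraries carried the guide sgUTX_4 and 2 carried sgUTX_2, both directed at KDM6A, the gene of UTX, and delivered with a lentivirus for gene knockout. The other 4 libraries, 2 with SGC0946 and 2 with DMSO, carried the control guide sgLuc and were used only where the response of sgUTX cells was set against that of control cells. OCI-AML2 is an established human line with a rearranged KMT2A (MLL) gene, grown here in RPMI medium with serum. Whether the guide lines were pools or clones is not in the labels. Nor do the labels give separate cultures for the libraries of a group, and a p-value here then refers to the spread between libraries alone, part or all of which could be technical. All groups share the guide vector, since no library came from cells without one.

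DOT1L is the enzyme that methylates lysine 79 of histone H3 along transcribed genes, and it is recruited by partners of the KMT2A fusion proteins to the genes that keep KMT2A-rearranged leukemia cells immature, such as those of the HOXA cluster and MEIS1. Inhibitors of DOT1L, SGC0946 among them, remove this mark slowly over days of culture, lower those genes and let such cells take on features of mature monocytes and granulocytes. UTX removes methyl groups from lysine 27 of histone H3 and works with the KMT2C and KMT2D complexes at enhancers.

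Total counts per library lay between 16807292 and 23262141. Levels are given as CPM, counts per 1000000 reads after TMM scaling, and the 4 values of a treatment always run from sgUTX_4 replicates 1 and 2 to sgUTX_2 replicates 1 and 2. A change given without a unit is a log2 fold change, SGC0946 over DMSO, with its SE after ± where one is printed. KDM6A itself had 43.1, 48.8, 14.4 and 15.9 CPM with SGC0946, against 49.4, 46.2, 14.7 and 15.6 CPM with DMSO. Its level followed the guide in both treatments, at 49.4 and 46.2 CPM with sgUTX_4 and 14.7 and 15.6 CPM with sgUTX_2 in DMSO beside 32 and 27.9 CPM with sgLuc, so RNA was below the control guide with sgUTX_2 and above it with sgUTX_4. A guide can end the protein without lowering the RNA, so these values do not check the knockout. SGC0946 did not move KDM6A detectably (log2 fold change -0.03 ± 0.07 SE, adjusted p = 0.806). The myeloid markers CD33, SPI1 and CEBPA were present in every library, SPI1 at 384, 363, 365 and 351 CPM with SGC0946 and 360.5, 383, 396 and 364 CPM with DMSO.

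Genes that mark other cells were near the floor in all 8 libraries, with a few exceptions. Of 12 genes listed for adherent cells (collagens, keratins, endothelial genes), 10 had at most 1 CPM on average, and the whole list summed to 6.99 to 16.2 CPM with SGC0946 and 2.41 to 4.21 CPM with DMSO. The 12 lymphoid genes summed to 25.2 to 30 CPM with SGC0946 and 18.5 to 24.1 CPM with DMSO, most of it NKG7, while CD79B rose by 1.90 ± 0.27. The 9 megakaryocyte genes summed to 9.57 to 11.9 CPM with SGC0946 and 9.09 to 12.3 CPM with DMSO, and the 12 erythroid genes to 308 to 609 CPM with SGC0946 and 191 to 346 CPM with DMSO, nearly all of it the transferrin receptor gene TFRC. The part of these differences in the results below was not tested. Mitochondrially encoded genes took 1.38% to 1.51% of counts with SGC0946 and 1.10% to 1.26% with DMSO.

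SGC0946 changed 5631 of the 14483 genes tested, 38.9%, at an adjusted p under 0.05 in edgeR's quasi-likelihood test with the guide as covariate. Of these 2884 rose (19.9% of the genes tested) and 2747 fell (19%), but large changes were mostly rises: 932 genes rose at least 2-fold (6.44%) and 156 fell at least 2-fold (1.08%). Across all genes tested the median log2 fold change was 0.00. The shares of 19.9% higher and 19% lower are the background for each count of list members called below. The 4 SGC0946 libraries lay above the 4 DMSO libraries for 2289 genes (15.8%) and below them for 2323 (16%). On the first principal component, which held 58.2% of the variance of log2 CPM, SGC0946 libraries lay between 30.6 and 38.5 and DMSO libraries between -39.3 and -29.5. The guides separated on the second component, with 11.8% of the variance. In bulk RNA a smaller share of cells that express a gene and less RNA per cell cannot be told apart.

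Genes known as targets of KMT2A fusion proteins fell almost throughout. Of 24 such genes listed, 21 passed the count filter, and of these 19 fell, 1 rose and 1 was not called, against 19% lower and 19.9% higher among all genes tested. Their median log2 fold change was -1.02, beside 0.00 over all genes, and 11 of them fell at least 2-fold. MEF2C, a transcription factor of myeloid progenitors, had 77.6, 82, 93.5 and 91.4 CPM with SGC0946, against 346, 369, 392 and 385 CPM with DMSO. The treatments were far apart and the guides close together (log2 fold change -2.11 ± 0.05 SE, adjusted p = 6.84e-22). The homeobox gene MEIS1, the partner of HOXA9 in leukemia, had 5.09, 4.29, 4.72 and 5.7 CPM with SGC0946, against 26.6, 24.6, 18.8 and 19.4 CPM with DMSO. Its DMSO level was higher with sgUTX_4 than with sgUTX_2, and the treated libraries of both guides came down to a like level (log2 fold change -2.14 ± 0.11 SE, adjusted p = 7.53e-14). PBX3, another partner of HOX proteins, fell by 1.16 on the log2 scale, and its 4 treated libraries at 42.3, 48.2, 58.6 and 54.8 CPM were all below the 4 vehicle libraries at 108, 116, 118 and 114 CPM.

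Within the HOXA cluster the size of the fall depended on the gene. HOXA5 had 1.19, 1.58, 0.579 and 1.23 CPM with SGC0946, against 10.8, 10.6, 11.1 and 10.9 CPM with DMSO, so almost the whole level was lost in each treated library (log2 fold change -3.24 ± 0.18 SE, adjusted p = 4.76e-14). HOXA6 was left with 1 to 3 counts in each treated library, 0.113, 0.102, 0.0445 and 0.123 CPM, against 3.14, 3.02, 1.87 and 2.67 CPM with DMSO. It is among the fusion targets tested and passed the count filter through vehicle libraries alone, so it could be called only lower. HOXA9, a driver of self-renewal in this leukemia, had 26.7, 27, 21.7 and 24 CPM with SGC0946, against 51.2, 47.9, 48.5 and 42 CPM with DMSO, a fall of 0.93 on the log2 scale with no overlap between treatments. HOXA10 fell by less than HOXA5 as well (-0.83 ± 0.08), with 21.3, 17.7, 15.3 and 14.5 CPM in treated libraries and 33.1, 31.9, 28.4 and 28.6 CPM in vehicle libraries. Reads of antisense neighbours cannot be separated here, and other genes, antisense ones among them, overlap 40.1% of the exonic bases of HOXA6 and 27% of those of HOXA9.

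The kinase gene CDK6, which drives entry into the cell cycle, had 114, 113, 110 and 107 CPM with SGC0946, against 244, 246, 231 and 238 CPM with DMSO, an even fall in all 4 treated libraries (log2 fold change -1.10 ± 0.04 SE, adjusted p = 9.47e-17). SATB1, a chromatin organiser, and RUNX2, a runt-family transcription factor, fell by similar amounts (-1.11 ± 0.04 and -1.18 ± 0.06). FLT3, the receptor kinase of progenitor cells, had 34.7, 36.7, 43.3 and 43 CPM with SGC0946, against 83.1, 84.3, 82.3 and 72.2 CPM with DMSO. Treated libraries were lower in every case, and the fall was -1.23 with sgUTX_4 and -0.83 with sgUTX_2. BCL2, which protects from apoptosis, fell by 0.72 and the proto-oncogene MYB by 0.40, both with no overlap between treatments. RUNX1, the other runt-family gene of the list, went the other way and was slightly higher, at 213, 226, 199.5 and 193 CPM with SGC0946 against 190.4, 192, 181 and 179.5 CPM with DMSO (log2 fold change 0.17 ± 0.04 SE, adjusted p = 0.00329). With each guide alone, 19 of the tested members were called lower (12.2% of all genes with sgUTX_4 and 12.5% with sgUTX_2), and the medians were -1.11 with sgUTX_4 and -0.97 with sgUTX_2.

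**Figure D1:**
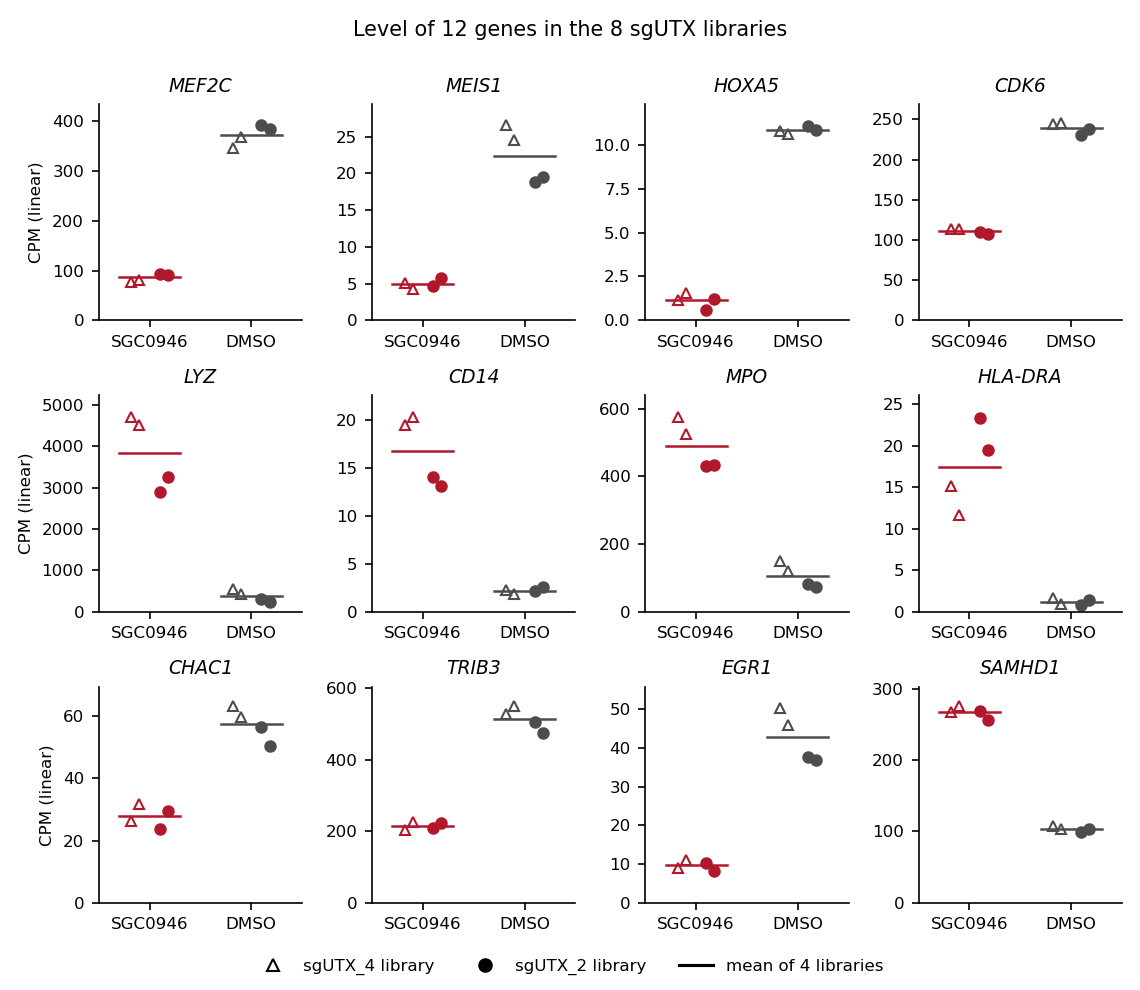
Level in CPM (linear axis from 0) of 12 genes in the 8 sgUTX libraries, SGC0946 on the left and DMSO on the right of each panel, with triangles for sgUTX_4, circles for sgUTX_2 and a line at the mean of 4 libraries. The treatments do not overlap for any of the 12 genes, for example 77.6, 82, 93.5 and 91.4 CPM with SGC0946 against 346, 369, 392 and 385 CPM with DMSO for MEF2C.

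Genes of mature monocytes and macrophages rose. Of 22 listed, 13 passed the count filter, 12 of these rose and none fell, with a median log2 fold change of 2.26. The other 9 were too low in all libraries to be tested, among them CD163 and the C1q genes, which mark macrophages. LYZ, which encodes the antibacterial enzyme lysozyme, had 4695, 4509, 2887 and 3256 CPM with SGC0946, against 535, 424, 302 and 244 CPM with DMSO. Treated libraries were far above vehicle libraries, and treated sgUTX_4 libraries were higher than treated sgUTX_2 libraries (log2 fold change 3.38 ± 0.11 SE, adjusted p = 7.89e-08). CD14, the co-receptor for bacterial lipopolysaccharide on monocytes, had 19.5, 20.3, 14.1 and 13.1 CPM with SGC0946, against 2.26, 1.83, 2.11 and 2.58 CPM with DMSO. ITGAM, the integrin chain CD11b used as the standard marker of myeloid maturation, had 18, 18.2, 12.7 and 10.8 CPM with SGC0946, against 1.87, 2.92, 1.77 and 1.53 CPM with DMSO. Both were low in every vehicle library and higher in every treated one, by 2.89 ± 0.14 and 2.88 ± 0.13. CSF1R, the receptor for macrophage growth factor, had 52, 56.7, 73.4 and 66 CPM with SGC0946, against 18.6, 12.2, 9.87 and 11.7 CPM with DMSO (log2 fold change 2.26 ± 0.23 SE, adjusted p = 0.000711), and here the treated sgUTX_2 libraries were the higher ones. The co-stimulatory gene CD86 and the scavenger receptor gene CD36 rose to 3.85, 5.36, 5.12 and 4.72 CPM and 16.2, 18, 11.2 and 14.4 CPM with SGC0946, against 0.661, 0.756, 1.03 and 0.745 CPM and 3.14, 1.3, 1.82 and 1.05 CPM with DMSO. FCN1, a monocyte lectin gene, rose least of those named here (0.65 ± 0.11), with 37.4, 34.3, 12.7 and 12.7 CPM with SGC0946, against 26.2, 27, 7.71 and 5.21 CPM with DMSO, so that the guides lay further apart than the treatments. CD4 was not called (log2 fold change 0.10 ± 0.06 SE, adjusted p = 0.158). Its change was 0.15 without DMSO replicate 2 of sgUTX_4.

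Granule and neutrophil genes also rose, 17 of the 18 tested of 19 listed, with 1 lower and a median of 1.49. Among all genes tested 19.9% were higher and 19% lower. With a filter of at least 1 CPM in at least 4 libraries, 15 of the list were tested, 14 rose and 1 fell (median 1.29). The 4 treated libraries alone can satisfy this filter, so it does not remove genes that could be called only higher. MPO, the peroxidase of azurophilic granules, had 576, 526, 429 and 432 CPM with SGC0946, against 148, 121, 82.9 and 71.3 CPM with DMSO (log2 fold change 2.26 ± 0.12 SE, adjusted p = 1.08e-05). DEFA3, a defensin gene with near-identical copies among which reads may be split, had 699.6, 597, 169.9 and 182 CPM with SGC0946, against 70.8, 52.3, 16.5 and 12.3 CPM with DMSO. Its levels were far higher with sgUTX_4 than with sgUTX_2 in both treatments, and the rise was 3.40 with sgUTX_4 and 3.63 with sgUTX_2. MMP9, the gelatinase of later granules, had 27.7, 20.8, 17.9 and 16.4 CPM with SGC0946, against 1.54, 1.4, 1.03 and 1.09 CPM with DMSO, and S100A12, an alarmin gene, had 25.5, 20.3, 11.4 and 10.9 CPM with SGC0946, against 2.86, 2.54, 0.982 and 0.657 CPM with DMSO. The alarmin subunit genes S100A8 and S100A9 rose less (1.22 ± 0.22 and 0.96 ± 0.18), and for both the vehicle sgUTX_4 libraries overlapped the treated sgUTX_2 libraries. Among the serine proteases of azurophilic granules, PRTN3 rose (0.97 ± 0.14), ELANE and AZU1 rose little (0.33 ± 0.05 and 0.43 ± 0.05), and CTSG fell (log2 fold change -0.58 ± 0.15 SE, adjusted p = 0.0286). CTSG had 549, 488, 239.5 and 266 CPM with SGC0946, against 1018, 814, 359 and 286 CPM with DMSO, lower with SGC0946 within each guide, while the guides lay further apart than the treatments. That call was lost (adjusted p between 0.0651 and 0.0894) when DMSO replicate 1 or SGC0946 replicate 1 of sgUTX_2, or DMSO replicate 2 or SGC0946 replicate 1 of sgUTX_4, was left out. In a fit with no guide covariate 8 of the list were called higher. LCN2 and CEACAM8 were called higher from at most a few counts per vehicle library, 0.11, 0, 0 and 0 CPM and 0.0551, 0, 0.147 and 0 CPM with DMSO, and no fold is given for them. Both count among the 17 and passed the count filter through treated libraries alone, so they could be called only higher.

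Receptors that guide phagocytes to inflamed tissue rose in 11 of 13 tested genes of 14 listed (median 1.24), with none lower. CXCR2, a receptor for interleukin-8, had 42.9, 43.4, 37.7 and 38.1 CPM with SGC0946, against 9.42, 6.96, 7.9 and 7.36 CPM with DMSO, a tight rise (log2 fold change 2.36 ± 0.08 SE, adjusted p = 8.84e-18). CCR2, the receptor that draws monocytes from bone marrow, had 76.1, 65.4, 40 and 44.2 CPM with SGC0946, against 12.7, 12.8, 4.76 and 4.25 CPM with DMSO. Treated and vehicle libraries did not overlap, and both levels were higher with sgUTX_4. FPR1, the receptor for bacterial formyl peptides, had 5.38, 5.36, 3.74 and 3.2 CPM with SGC0946, against 0.936, 1.13, 0.491 and 0.526 CPM with DMSO. The complement receptor gene C5AR1 was not called, at 3.34, 5.62, 4.81 and 4.72 CPM with SGC0946 and 4.46, 5.29, 5.89 and 5.43 CPM with DMSO (log2 fold change -0.18 ± 0.15 SE, adjusted p = 0.386).

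Fc receptor genes moved in both directions. Of 10 tested of 11 listed, 8 rose and 2 fell (median 1.04). FCGR1A, the high-affinity receptor CD64, had 45.2, 48.4, 43.7 and 47.2 CPM with SGC0946, against 102, 98, 96.3 and 97.7 CPM with DMSO, a fall in every treated library (log2 fold change -1.09 ± 0.05 SE, adjusted p = 3.84e-15), and FCGR1B, a near copy of FCGR1A, fell by 0.33. FCGRT, the neonatal Fc receptor that recycles IgG, rose (log2 fold change 1.22 ± 0.07 SE, adjusted p = 2.43e-13). FCGR3B, the Fc receptor of neutrophils, had 2.55, 2.6, 1.51 and 1.27 CPM with SGC0946 and 0.0551, 0, 0 and 0 CPM with DMSO, where 1 of 4 vehicle libraries held any read. It is among the 8 that rose and passed the count filter through treated libraries alone, so it could be called only higher. Counts of this family can be split between near-identical members.

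Toll-like receptor genes and adaptors rose in 9 of 11 tested members of 13 listed (median 0.87), and CD180 fell (-0.46 ± 0.07). Among all genes tested 19.9% were higher and 19% lower. With a filter of at least 1 CPM in at least 4 libraries, which the 4 treated libraries alone can satisfy, 9 members were tested. Of these 8 rose and 1 fell, and the median was smaller (0.64). TLR8, a sensor of single-stranded RNA, had 26.8, 24.6, 28.1 and 24.9 CPM with SGC0946, against 1.21, 0.702, 1.87 and 1.62 CPM with DMSO (log2 fold change 4.25 ± 0.14 SE, adjusted p = 1.24e-17). TLR4, the lipopolysaccharide receptor that works with CD14, had 134, 134, 102 and 110.1 CPM with SGC0946, against 60, 57.9, 43.7 and 38.1 CPM with DMSO. Both were separated by treatment in all libraries. Among subunit genes of the phagocyte oxidase, CYBB, the catalytic subunit, and CYBA rose (0.57 ± 0.04 and 0.32 ± 0.06), NCF1 and NCF4 were not called, and the GTPase gene RAC2 fell (-0.45 ± 0.04). NCF4 was called lower in the fit of 12 libraries in 6 groups (-0.11, adjusted p = 0.0402), and its change was -0.16 without SGC0946 replicate 2 of sgUTX_2. Lysosomal genes rose in 11 of 22 tested, none fell, and the median was 0.14. CTSZ, a cathepsin, had 163, 158, 132 and 142 CPM with SGC0946, against 62.6, 63.3, 66.9 and 55.5 CPM with DMSO, and GRN, the gene of progranulin, had 418, 404, 364 and 341 CPM with SGC0946, against 205, 208, 187 and 178 CPM with DMSO. CTSB, CTSC and CTSL, also cathepsins, were not called. CTSB was called higher with the filter of at least 1 CPM in at least 4 libraries (0.13, adjusted p = 0.032), and its change was 0.14 without DMSO replicate 1 of sgUTX_2.

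Among integrins and adhesion genes 10 of 17 tested rose and 3 fell. PECAM1, an adhesion molecule of leukocytes and endothelium, had 108, 110, 111 and 108 CPM with SGC0946, against 44.6, 38.8, 47.7 and 42.3 CPM with DMSO (log2 fold change 1.34 ± 0.06 SE, adjusted p = 3.05e-16). ITGB7, the chain that pairs with integrin alpha 4 for homing to the gut, rose by 2.10 ± 0.18, whereas ITGB1, the chain that pairs with the same partner for binding to vessels and matrix, had 68.2, 75.1, 61.6 and 62.9 CPM with SGC0946, against 117, 117, 117 and 105 CPM with DMSO and fell (log2 fold change -0.76 ± 0.05 SE, adjusted p = 5.2e-12). CD44, a receptor for hyaluronan, fell by 0.27.

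Of 17 genes of MHC class II presentation listed, 12 were tested, 7 rose and 1 fell, with a median log2 fold change of 1.47, and several of those that rose started close to the floor. HLA-DRA, the alpha chain shared by all DR molecules, had 15.2, 11.6, 23.4 and 19.4 CPM with SGC0946, against 1.65, 0.972, 0.835 and 1.36 CPM with DMSO. All treated libraries were far above every vehicle library, and those of sgUTX_2 were above those of sgUTX_4 (log2 fold change 3.85 ± 0.19 SE, adjusted p = 3.43e-11). HLA-DPA1 had 4.75, 3.47, 6.5 and 5.33 CPM with SGC0946, against 0.331, 0.216, 0.196 and 0.35 CPM with DMSO, and HLA-DMB, which helps load peptides, had 3.85, 3.42, 3.21 and 2.42 CPM with SGC0946, against 0.22, 0.486, 0.245 and 0.0438 CPM with DMSO. HLA-DPA1 and HLA-DMB are among the 12 tested. Both passed the count filter through treated libraries alone, so they could be called only higher. CIITA, the transactivator on which class II expression depends, had 4.02, 3.58, 6.01 and 5.54 CPM with SGC0946, against 1.05, 0.81, 0.638 and 1.27 CPM with DMSO (log2 fold change 2.33 ± 0.22 SE, adjusted p = 1.87e-09). CD74, the invariant chain that guards the peptide groove, had 375, 385, 458 and 438 CPM with SGC0946, against 214, 218, 246 and 244 CPM with DMSO and rose less (log2 fold change 0.85 ± 0.04 SE, adjusted p = 1.85e-14). Among the factors that bind class II promoters, RFX5 and RFXAP were not called and RFXANK fell (log2 fold change -0.48 ± 0.05 SE, adjusted p = 1.49e-08). HLA-DPB1, HLA-DQA1 and HLA-DQB1 were below the filter. Class I genes moved little: of 13 tested, 5 rose and 3 fell, HLA-B by 0.32 ± 0.05 and B2M by 0.22 ± 0.06 among the rises and TAP2 by -0.31 ± 0.06 among the falls.

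Of 27 interferon-stimulated genes tested 5 were higher and 4 lower (median 0.15), a share of calls no larger than the 38.9% of all genes. The lower calls numbered 2 with DESeq2, with the replicate block, without either DMSO or either SGC0946 library of sgUTX_2 and without replicate 2 of either treatment of sgUTX_4, with 1 library left out at a time. The median was 0.08 without DMSO replicate 1 of sgUTX_2 and 0.23 without DMSO replicate 2 of sgUTX_4. IFITM1, an antiviral membrane protein gene, was the largest rise with 2.15, 3.06, 2.36 and 3 CPM with SGC0946, against 0.716, 0.648, 0.442 and 0.307 CPM with DMSO. IRF1, a transcription factor of the interferon response, had 11.6, 13.8, 11.4 and 12.1 CPM with SGC0946, against 18.4, 22.1, 18.6 and 19.4 CPM with DMSO and fell (log2 fold change -0.67 ± 0.09 SE, adjusted p = 6.66e-07). ISG15, a core member of the response, was not called (0.14 ± 0.27).

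**Figure D2:**
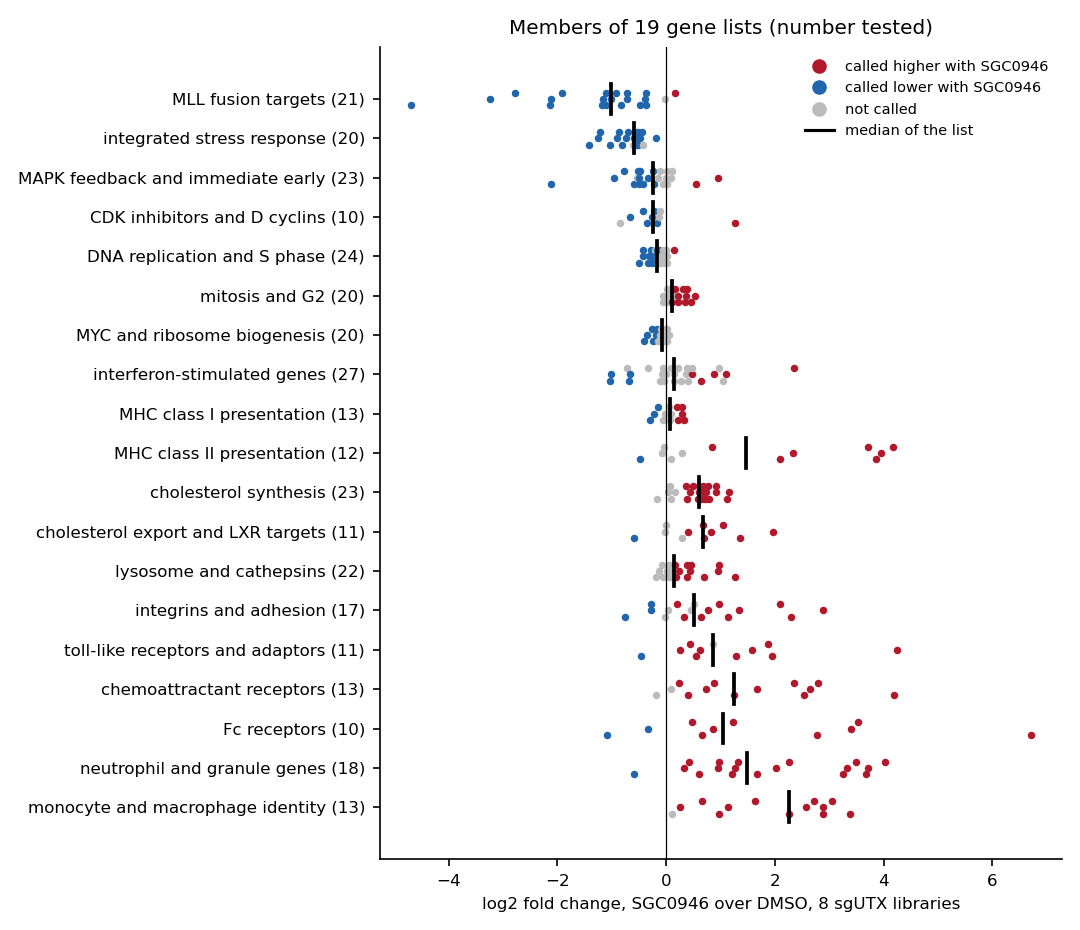
Log2 fold change (SGC0946 over DMSO, 8 sgUTX libraries) of the tested members of 19 gene lists, with the number tested in parentheses, red for called higher, blue for called lower, grey for not called and a black line at the median of each list. Fusion targets (median -1.02) and stress response genes (-0.60) lie to the left, monocyte genes (2.26) and class II genes (1.47) to the right.

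Genes of the integrated stress response fell. This pathway reads amino acid shortage and other stress through phosphorylation of a translation factor, and its transcription factor ATF4 then raises genes of amino acid synthesis and transport. All 20 listed genes were tested, 18 fell and none rose, and the median was -0.60. The promoters of 3 members are shown because they hold the composite element of C/EBP and ATF factors, TGATGNAA, through which ATF4 acts. They are the 250 bases before the gene start from RefSeq (GRCh38.p14), with the match in capitals on either strand, at chr15:40953221-40953470 (+ strand) for CHAC1, chr7:97872409-97872658 (- strand) for ASNS and chr1:212565157-212565406 (+ strand) for ATF3.
CHAC1: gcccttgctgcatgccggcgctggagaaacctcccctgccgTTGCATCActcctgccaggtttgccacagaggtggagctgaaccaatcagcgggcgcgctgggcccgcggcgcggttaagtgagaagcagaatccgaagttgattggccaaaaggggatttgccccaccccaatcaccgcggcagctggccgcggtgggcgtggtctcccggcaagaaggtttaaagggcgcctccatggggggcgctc
ASNS: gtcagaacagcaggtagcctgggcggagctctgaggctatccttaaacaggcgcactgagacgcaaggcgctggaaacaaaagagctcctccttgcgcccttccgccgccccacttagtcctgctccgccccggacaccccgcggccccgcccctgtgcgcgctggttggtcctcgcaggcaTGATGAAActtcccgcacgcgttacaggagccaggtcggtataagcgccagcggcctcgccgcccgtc
ATF3: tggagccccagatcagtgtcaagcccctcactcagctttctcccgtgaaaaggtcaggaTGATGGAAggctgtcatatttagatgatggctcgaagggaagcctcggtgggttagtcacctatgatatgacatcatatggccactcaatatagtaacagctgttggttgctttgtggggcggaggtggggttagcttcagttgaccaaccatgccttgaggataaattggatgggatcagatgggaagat
The element was found in 4 of the 17 members with a promoter in the table, 23.5%, and in 1.75% of the promoters of all tested genes, over windows of 250 bases before and 50 after the start. Among genes called lower the share was 2.03%, and among genes called higher 2.11%. A match in the letters is a description and shows no binding.

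CHAC1, which degrades glutathione and is a target of ATF4, had 26.2, 31.7, 23.8 and 29.6 CPM with SGC0946, against 63.3, 59.5, 56.4 and 50.5 CPM with DMSO. TRIB3, a pseudokinase that feeds back on ATF4, had 205, 225, 208 and 222 CPM with SGC0946, against 528, 551, 506 and 475 CPM with DMSO. In both cases every treated library lay well below every vehicle library and the guides lay close together (-1.03 ± 0.07 and -1.25 ± 0.05). ATF3, a factor induced downstream of ATF4, had 7.98, 6.13, 6.77 and 7.67 CPM with SGC0946, against 18.7, 16.5, 15.9 and 15.5 CPM with DMSO (log2 fold change -1.21 ± 0.10 SE, adjusted p = 3.8e-10). ATF5, a relative of ATF4, had 118, 184, 273 and 255 CPM with SGC0946, against 427, 541, 581 and 620.4 CPM with DMSO. It fell in every library, but treated sgUTX_4 replicate 1 lay well below the other treated libraries (log2 fold change -1.42 ± 0.20 SE, adjusted p = 0.00279). ASNS, asparagine synthetase, had 3.57, 4.14, 3.79 and 4.47 CPM with SGC0946, against 5.29, 6.32, 4.81 and 6.66 CPM with DMSO, a smaller fall near the low end of detection (log2 fold change -0.52 ± 0.15 SE, adjusted p = 0.00634). PSPH and MTHFD2, of serine synthesis and of mitochondrial one-carbon metabolism, fell by 0.81 and 0.71, and the cystine transporter gene SLC7A11 by 0.48. ATF4 RNA itself fell by 0.20, with 736, 792, 833 and 862 CPM with SGC0946, against 856, 866, 1021 and 964 CPM with DMSO, so the vehicle sgUTX_4 libraries overlapped the treated sgUTX_2 libraries. PSAT1 and STC2 were the members not called, but PSAT1 was lower without SGC0946 replicate 1 of sgUTX_4 (-0.45, adjusted p = 2.47e-05), with DESeq2 (-0.60, adjusted p = 0.00431), with no guide covariate (adjusted p = 0.0329) and in fits of all 12 libraries in 6 or 4 groups (adjusted p = 0.0135 and 0.0141). Reads of DDIT3, ASNS and DDIT4 may include those of overlapping genes, which cover 39.6%, 44.6% and 41.2% of their exonic bases.

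Cholesterol synthesis genes rose together with most genes of sterol export. Of 24 genes of the pathway and its control listed, 23 were tested, 18 rose and none fell, with a median of 0.61 (0.61 with sgUTX_4 and 0.58 with sgUTX_2). They are known targets of SREBF2, which acts beside the CCAAT-binding factor NF-Y. The promoters of 3 of them are shown with the letters ATTGG, the CCAAT box read on the other strand, in capitals wherever they or their complement occur. They are again the 250 bases before the start from RefSeq (GRCh38.p14), at chr5:43313413-43313662 (- strand) for HMGCS1, chr7:155297628-155297877 (+ strand) for INSIG1 and chr4:165327419-165327668 (+ strand) for MSMO1.
HMGCS1: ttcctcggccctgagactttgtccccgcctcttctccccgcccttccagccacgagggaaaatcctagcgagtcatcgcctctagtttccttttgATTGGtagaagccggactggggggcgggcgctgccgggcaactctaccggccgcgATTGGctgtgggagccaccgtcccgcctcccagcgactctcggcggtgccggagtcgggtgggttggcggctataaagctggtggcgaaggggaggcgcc
INSIG1: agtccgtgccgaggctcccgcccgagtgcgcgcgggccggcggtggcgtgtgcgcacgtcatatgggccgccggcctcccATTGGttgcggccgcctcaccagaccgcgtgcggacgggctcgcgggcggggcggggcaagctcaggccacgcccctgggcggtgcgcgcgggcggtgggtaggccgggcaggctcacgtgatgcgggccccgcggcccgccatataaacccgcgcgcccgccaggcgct
MSMO1: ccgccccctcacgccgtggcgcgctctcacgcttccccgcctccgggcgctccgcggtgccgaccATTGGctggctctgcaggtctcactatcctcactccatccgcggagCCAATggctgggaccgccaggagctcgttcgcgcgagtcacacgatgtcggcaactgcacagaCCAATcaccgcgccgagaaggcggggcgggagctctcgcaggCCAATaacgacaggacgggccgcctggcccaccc
The letters occur in 15 of the 18 members with a promoter in the table, 83.3%, and in 36.5% of the promoters of all tested genes in windows of the same length. The share was also 36.5% among genes called higher. It was 66.7% among the listed class II genes, 58.8% among stress response genes, which fell, and 42.1% among fusion targets. As a motif of 5 letters it is common, and no binding was measured.

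HMGCS1, which makes the precursor of mevalonate, had 144, 91.1, 126 and 113 CPM with SGC0946, against 70.2, 35, 51.5 and 56.9 CPM with DMSO. MSMO1, a demethylase of late sterol synthesis, had 65, 49.4, 43.8 and 43.9 CPM with SGC0946, against 34.8, 18.8, 20.2 and 19.4 CPM with DMSO. In both genes the 4 treated libraries were above all vehicle libraries, yet vehicle sgUTX_4 replicate 1 stood well above replicate 2 of the same guide (log2 fold change 1.15 ± 0.26 SE, adjusted p = 0.0194 for HMGCS1). INSIG1, which holds SREBP factors in the endoplasmic reticulum, had 365, 278, 250 and 257 CPM with SGC0946, against 198, 135, 148 and 129 CPM with DMSO. The call of HMGCS1 was lost without either DMSO or either SGC0946 library of sgUTX_2 or SGC0946 replicate 1 of sgUTX_4, 1 left out at a time (adjusted p between 0.0502 and 0.0636). SREBF2 RNA itself was not called (0.08 ± 0.04). Of 11 genes of cholesterol export and LXR targets, 7 rose and 1 fell. ABCG1, a sterol exporter, had 12.8, 13, 14.9 and 17.8 CPM with SGC0946, against 2.81, 4.05, 3.68 and 4.47 CPM with DMSO (log2 fold change 1.96 ± 0.12 SE, adjusted p = 8.1e-13), PLTP, which moves phospholipids between lipoproteins, rose by 1.05 ± 0.06, and LPCAT3, which remodels phospholipids, fell (-0.59 ± 0.08).

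Cell cycle genes moved by small amounts in both directions. Among all genes tested 19.9% were higher and 19% lower. Of 24 genes of DNA replication and S phase 12 fell and 1 rose (median -0.16), CDC45, a part of the replicative helicase, the most (log2 fold change -0.50 ± 0.05 SE, adjusted p = 6.21e-09). Of 20 mitotic genes 10 rose and none fell (median 0.12), with KIF20A, a kinesin of cytokinesis, at 0.53 ± 0.06 and the proliferation marker MKI67 at 0.35 ± 0.05. CDK4 and CCND3, the kinase and cyclin of G1, fell by 0.43 and 0.26. CDKN1A, the gene of the CDK inhibitor p21, had 7.08, 6.18, 7.26 and 8.21 CPM with SGC0946, against 11.7, 11.1, 10.2 and 12.4 CPM with DMSO, a fall (log2 fold change -0.66 ± 0.11 SE, adjusted p = 2.68e-05). MYC was not called (log2 fold change -0.10 ± 0.04 SE, adjusted p = 0.0741). It was called lower with scaling by library size alone and in the fit of 12 libraries in 6 groups (adjusted p = 0.0473 and 0.042). Its change was -0.13 without DMSO replicate 2 of sgUTX_2. Of 20 genes of MYC and ribosome biogenesis 6 fell and none rose (median -0.09), beside 19% lower and 19.9% higher among all genes. The share called in either direction was smaller than the 38.9% among all genes.

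Of 24 immediate early and MAPK feedback genes listed, 23 were tested, 12 fell and 2 rose (median -0.25). EGR1, an immediate early factor linked to monocyte development, had 9.11, 11.1, 10.3 and 8.29 CPM with SGC0946, against 50.5, 46, 37.7 and 36.9 CPM with DMSO, lower in every treated library (log2 fold change -2.12 ± 0.08 SE, adjusted p = 1.18e-16). JUND and the AP-1 gene FOSL1 fell by 0.77 and 0.96, while the phosphatase gene DUSP4 and JUN rose by 0.96 ± 0.12 and 0.55 ± 0.16. The STAT5 target SOCS2, which damps cytokine signals, had 11.9, 11.3, 12.1 and 12.7 CPM with SGC0946, against 56.6, 53, 46.2 and 48.2 CPM with DMSO (log2 fold change -2.07 ± 0.07 SE, adjusted p = 1.24e-17). PIM1 and STAT5A, of the same pathway, rose by 0.81 ± 0.12 and 0.68 ± 0.15.

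Of 19 transcription factors of myeloid development listed, 16 were tested, 5 rose and 5 fell. SPI1, CEBPA and IRF8 were not called, CEBPB rose by 0.30 ± 0.05 and CEBPE fell (-0.26 ± 0.06). CEBPA was called lower with scaling by library size alone and in the fit of 12 libraries in 6 groups (adjusted p = 0.0421 and 0.032). Its change was -0.13 without DMSO replicate 2 of sgUTX_2 or replicate 1 of either treatment of sgUTX_4. ID2, an inhibitor of helix-loop-helix factors, had 10.9, 12.1, 7.39 and 7.63 CPM with SGC0946, against 1.82, 2, 2.11 and 0.92 CPM with DMSO and GATA2, a factor of stem cells, mast cells and eosinophils, had 6.11, 6.23, 15.3 and 13.9 CPM with SGC0946, against 27.2, 32.4, 37.5 and 36.1 CPM with DMSO. ID2 was higher and GATA2 lower in every treated library (2.47 ± 0.17 and -1.71 ± 0.19). Of the stem and progenitor genes only 8 of 18 were tested, CD38 and IL3RA fell (-0.56 ± 0.05 and -0.50 ± 0.10), and CD33, the target of an antibody drug in this disease, rose (log2 fold change 0.48 ± 0.05 SE, adjusted p = 3.89e-08). CD34 was below the filter.

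In the BCL2 family 12 of 15 tested members were not called, MCL1 among them (0.04 ± 0.04). BCL2 fell, as above, and BIK, a pro-apoptotic member, had 3.68, 2.71, 4.1 and 4.35 CPM with SGC0946, against 0.936, 0.81, 0.933 and 1.23 CPM with DMSO (log2 fold change 1.92 ± 0.22 SE, adjusted p = 6.42e-08). Of 16 genes that handle nucleosides and nucleoside drugs 4 rose and 5 fell (median -0.02), and 2 rose without DMSO replicate 1 or SGC0946 replicate 1 of sgUTX_4. SAMHD1, which breaks down deoxynucleotides and the active form of cytarabine, had 268, 276, 269 and 256 CPM with SGC0946, against 108, 104, 98.6 and 103 CPM with DMSO (log2 fold change 1.38 ± 0.05 SE, adjusted p = 2.69e-18), and CDA, which deaminates cytarabine, had 98.3, 95.2, 73.5 and 85.3 CPM with SGC0946, against 48.1, 38, 37 and 26.5 CPM with DMSO. Both were higher in every treated library. The nucleotidase gene NT5C3A and the thymidine kinase gene TK1 fell by 0.64 and 0.36. DCK, which activates the drug, and the transporter gene SLC29A1 were not called (-0.04 ± 0.05 and 0.03 ± 0.04). Of 21 glycolysis genes 11 rose and 1 fell (median 0.16), and of 21 tested p53 targets 7 rose (4 without the guide covariate) and 3 fell (median 0.10). The counts of this paragraph stand beside 19.9% higher and 19% lower among all genes tested.

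Of 17 genes of the DOT1L complex and the super elongation complex, 3 rose, 4 fell and 10 were not called (median -0.02). This share of calls was near the 38.9% among all genes. DOT1L RNA fell (log2 fold change -0.35 ± 0.05 SE, adjusted p = 1.06e-06), with 141, 145, 141 and 138 CPM with SGC0946, against 174, 189.9, 171 and 188 CPM with DMSO, and AFF1, of the super elongation complex, fell by 0.43. ELL2, an elongation factor of the same complex, rose, with 41.1, 41.7, 32.2 and 34.9 CPM with SGC0946, against 17.1, 13.9, 14.3 and 14.1 CPM with DMSO (log2 fold change 1.33 ± 0.08 SE, adjusted p = 1.19e-13). Of 15 UTX partners and H3K27 enzymes 1 rose and 6 fell, beside 19.9% higher and 19% lower among all genes. The lower calls numbered 4 with the replicate block and with no guide covariate, and 7 in the fit of 12 libraries in 6 groups. KMT2C and KMT2D were not called. KDM6B, the other H3K27 demethylase, and EZH2, the methyltransferase, fell by 0.46 and 0.36, and PAGR1, a subunit of the KMT2C and KMT2D complexes, rose by 0.55 ± 0.09.

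The largest changes outside the lists were named by a rule on size, level and agreement of all libraries. Among rises, SERPINB2, a protease inhibitor of activated monocytes, had 19.9, 21, 9.8 and 14.2 CPM with SGC0946, against 0.386, 0.378, 0.344 and 0.263 CPM with DMSO (log2 fold change 5.53 ± 0.20 SE, adjusted p = 1.03e-17), and its neighbour SERPINB10 had 26, 23.3, 15.8 and 17.7 CPM with SGC0946, against 1.43, 0.486, 0.736 and 0.788 CPM with DMSO. SLPI, an inhibitor of neutrophil elastase, had 75.4, 65.5, 38.6 and 47.8 CPM with SGC0946, against 6.67, 3.19, 1.62 and 0.92 CPM with DMSO, with the vehicle libraries spread from 0.92 to 6.67 CPM. FGL2, a prothrombinase of macrophages, had 53.8, 55.3, 48.9 and 49.8 CPM with SGC0946, against 2.53, 3.4, 3.29 and 3.42 CPM with DMSO, with each guide at a like level (log2 fold change 4.03 ± 0.09 SE, adjusted p = 6.84e-22). CFP, the complement factor properdin, and LILRB2, an inhibitory receptor of myeloid cells, rose by 4.22 ± 0.22 and 3.82 ± 0.22, and ACE, the angiotensin-converting enzyme, by 3.87 ± 0.29. Among falls, NIPA1, a magnesium transporter, had 24.9, 25.2, 28.1 and 25.4 CPM with SGC0946, against 87.7, 88.4, 95.5 and 90.3 CPM with DMSO. HTR1F, a serotonin receptor gene, had 0.623, 0.306, 0.668 and 0.41 CPM with SGC0946, against 5.62, 5.29, 5.01 and 5.26 CPM with DMSO (log2 fold change -3.38 ± 0.23 SE, adjusted p = 4.58e-12), and IGSF1 fell by 1.90. Each of these genes was separated by treatment without overlap, as the rule required. SERPINB2 shares 19.9% of its exonic bases with SERPINB10, and LYZ, MMP9, HMGCS1, CIITA and ICAM3 also overlap other genes. The shared part is large for other genes named above, 66% for PAGR1, 65.6% for LPCAT3, 43.4% for CEBPA, 43.2% for CDK4 and 42.1% for ITGB7. It is 33.2% for MTHFD2, 32.5% for IFITM1 and 32.3% for TAP2.

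The responses of the guides were close to each other in most genes called. With sgUTX_4 3746 genes were called, 25.9% (13.6% higher), and with sgUTX_2 3822, 26.4% (13.9% higher). Without SGC0946 replicate 1 of sgUTX_4 the number called with sgUTX_4 was 2485. Of genes that rose with sgUTX_4, 74.9% also rose with sgUTX_2, and these shared genes were 73.4% of those that rose with sgUTX_2. Of genes that fell, the shared ones were 67.6% of those with sgUTX_4 and 66.3% of those with sgUTX_2. Only 1 gene was called in opposite directions. All 1088 genes called at 2-fold or more over the 8 libraries had the same sign with each guide, though the choice of these genes rests on both guides. Over 12578 genes that averaged 1 CPM or more, the log2 fold changes of the guides had a Pearson r of 0.878 and a Spearman rho of 0.743, across genes that are not independent replicates, and the vehicle libraries of the guides are separate.

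The test of the difference between responses, sgUTX_4 minus sgUTX_2, called 2 genes, 0.0138% of those tested (1 positive and 1 negative, 0.0069% each), while 842 had an unadjusted p under 0.05 (5.81%) and DESeq2 called 5. Leaving out 1 library at a time gave between 0 and 27 called genes, 27 without SGC0946 replicate 2 of sgUTX_4, 14 without DMSO replicate 2 of sgUTX_2, and 0 without DMSO replicate 1 or SGC0946 replicate 2 of sgUTX_2 or SGC0946 replicate 1 of sgUTX_4. The median SE of a difference was 0.161. EPX, eosinophil peroxidase, had 91.5 and 82.4 CPM with SGC0946 and 12.8 and 11.3 CPM with DMSO in sgUTX_4 cells, and 32.7 and 34.4 and 12.8 and 9.02 CPM in sgUTX_2 cells. The vehicle levels overlapped and the treated levels of the guides were more than 2-fold apart (difference of log2 fold changes 1.21 ± 0.17 SE, adjusted p = 0.0271). MMRN1, the gene of multimerin, a protein of platelets and endothelium, had 14.7 and 14.7 CPM with SGC0946 and 103 and 103 CPM with DMSO in sgUTX_4 cells, and 17.9 and 20.5 and 83 and 78.5 CPM in sgUTX_2 cells. It fell with both guides, further with sgUTX_4 (difference -0.74 ± 0.12 SE, adjusted p = 0.0314). Neither call was firm against the loss of 1 library. That of EPX was lost without DMSO replicate 1 or either SGC0946 library of sgUTX_2, or without DMSO replicate 2 or SGC0946 replicate 1 of sgUTX_4, with adjusted p between 0.0525 and 0.17. For MMRN1 these were DMSO replicate 1 and SGC0946 replicate 2 of sgUTX_2 and either DMSO library and SGC0946 replicate 1 of sgUTX_4, with adjusted p between 0.0616 and 0.31.

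Other eosinophil granule genes were singled out after their values were seen and did not pass this test, though PRG3 passed in some alternatives. PRG3, a granule protein gene, had 48.1, 43, 16.8 and 19.6 CPM with SGC0946 and 5.51, 4.43, 5.16 and 3.72 CPM with DMSO, a rise of 3.20 with sgUTX_4 and 2.06 with sgUTX_2 (difference 1.14 ± 0.22 SE, adjusted p = 0.162). It passed with DESeq2 (adjusted p = 0.0219), with no filter on low counts (5.49e-05), in the fit of 12 libraries in 6 groups (0.0187), and without DMSO replicate 2 of sgUTX_2 (0.0235) or SGC0946 replicate 2 of sgUTX_4 (0.0352). CLC, the gene of the Charcot-Leyden crystal protein, had 10.1, 8.27, 3.12 and 4.47 CPM with SGC0946 and 0.331, 0.108, 0.196 and 0.175 CPM with DMSO (difference 1.03 ± 0.81 SE, adjusted p = 0.902). GATA2 lay at 6.11 and 6.23 CPM with sgUTX_4 and 15.3 and 13.9 CPM with sgUTX_2 after SGC0946, below the vehicle levels of both guides (difference -0.94 ± 0.17 SE, adjusted p = 0.059). It passed with DESeq2 (adjusted p = 0.0219), with no filter on low counts (9.84e-05), with the replicate block (0.0328), in the fit of 12 libraries (0.0241) and without DMSO replicate 1 of sgUTX_4 (0.0297). Among the 10 genes with the smallest p for the difference were also CCR2, with -0.77 ± 0.16 SE, adjusted p = 0.197, and KCNH2, a potassium channel gene, with 0.73 ± 0.15 SE, adjusted p = 0.197. With no filter on low counts both passed (adjusted p = 0.00466 for CCR2 and 0.000275 for KCNH2), and KCNH2 also did in the fit of 12 libraries (0.0339) and without DMSO replicate 2 of sgUTX_2 (0.0322) or SGC0946 replicate 2 of sgUTX_4 (0.016).

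**Figure D3:**
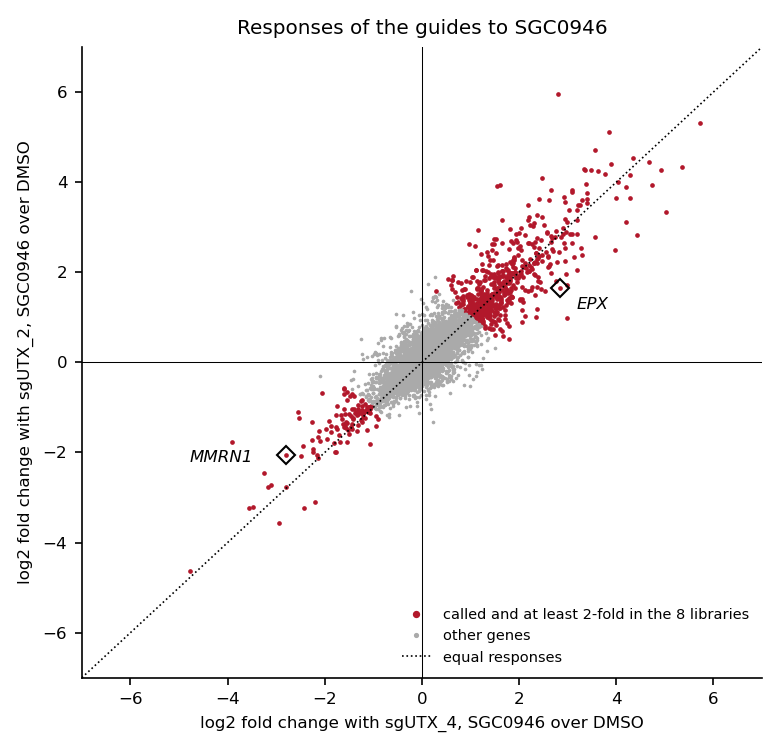
Log2 fold change with sgUTX_4 (x axis) against sgUTX_2 (y axis) for 12482 genes with a mean of the treatment means of at least 1 CPM, red for genes called and at least 2-fold over the 8 libraries, a dotted line at equal responses and diamonds at EPX and MMRN1 (1 gene lies beyond the axes). Red genes lie in the same quadrants for both guides, and EPX and MMRN1 lie off the line at 2.85 against 1.64 and -2.81 against -2.06.

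**Figure D4:**
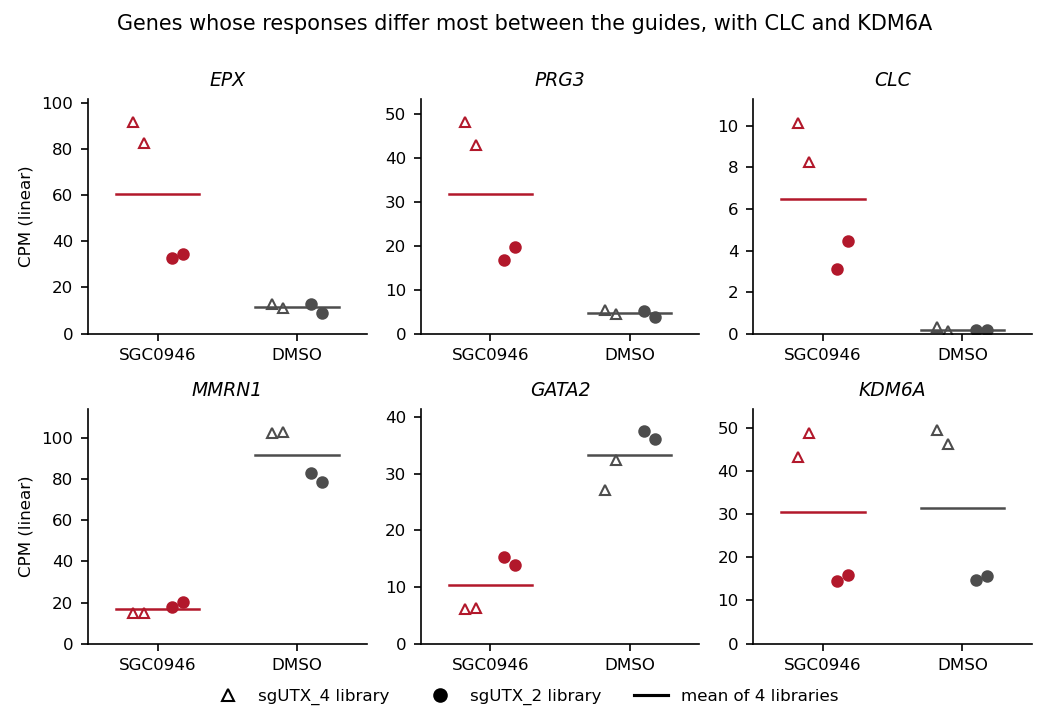
Level in CPM (linear axis from 0) of 6 genes in the 8 libraries, SGC0946 left and DMSO right, triangles for sgUTX_4, circles for sgUTX_2 and a line at the mean of 4 libraries. EPX, PRG3 and CLC are higher with sgUTX_4 than with sgUTX_2 after SGC0946 while the vehicle libraries lie together, and KDM6A separates by guide in both treatments.

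Against the response of control cells, the response of sgUTX cells differed for 5991 of 15060 genes, 39.8%, in a fit of all 12 libraries (difference sgUTX minus sgLuc, positive for 21% and negative for 18.8%). Of 2877 genes that rose with SGC0946 in sgUTX cells 76.5% had a positive fold change in sgLuc cells as well, and of 2747 that fell 71.9% had a negative one. The sgLuc vehicle libraries stand apart from all others, with 17.7% and 18.9% of counts on cytoplasmic ribosomal protein genes against 10.98% to 13.1% elsewhere, and each difference below includes them. Whether that bears on the differences was not tested.

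Several monocyte genes rose less in sgUTX cells and reached a lower level there. Of the 13 tested monocyte and macrophage genes, 8 had a negative difference and 3 a positive one. Among all genes the shares were 18.8% negative and 21% positive. CD14 had 19.5, 20.3, 14.1 and 13.1 CPM in treated sgUTX cells and 545 and 566 CPM in treated sgLuc cells, a log2 fold change of 2.90 in sgUTX and 6.01 in sgLuc cells (difference -3.11 ± 0.15, adjusted p = 1.29e-17). For the perforin-like gene MPEG1 of macrophages the fold changes were 1.57 and 6.03 (difference -4.46), for FPR1 2.56 and 6.75 (-4.19), for FCN1 0.71 and 5.03 (-4.33). C5AR1 rose by 4.19 in sgLuc cells and was not called in sgUTX cells (difference -4.37). CSF1R differed the other way, 2.26 in sgUTX and 1.34 in sgLuc cells (difference 0.91 ± 0.17).

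Fusion targets differed in both directions. Of the 21 tested, 11 had a positive difference and 5 a negative one, against 21% positive and 18.8% negative among all genes. Their median log2 fold change was -1.02 in sgUTX cells and -1.43 in sgLuc cells. MEIS1, CDK6 and the cytokine feedback gene SOCS2 fell less in sgUTX cells, with log2 fold changes of -2.16, -1.11 and -2.08, than in sgLuc cells, with -4.93, -2.12 and -5.33 (differences 2.77, 1.01 and 3.25). MEF2C fell more in sgUTX cells (difference -0.56 ± 0.07, adjusted p = 2.12e-07). For HOXA5 no difference was called (-0.02 ± 0.27, adjusted p = 0.962). Of the 12 class II genes tested, 7 had a positive difference and 2 a negative one, against 21% positive and 18.8% negative among all genes. HLA-DRA rose by more in sgUTX cells but reached a lower level, 15.2, 11.6, 23.4 and 19.4 CPM in treated sgUTX cells, against 124 and 141 CPM in treated and 57.6 and 61.8 CPM in vehicle sgLuc cells (difference 2.65), and for CIITA the difference was 1.98.

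Several genes had fold changes of opposite sign. EGR1 fell in sgUTX cells and was at 8.38 and 7.81 CPM with SGC0946 and 6.41 and 6.36 CPM with DMSO in sgLuc cells, so the vehicle sgUTX libraries were the high ones (difference -2.47). CDKN1A fell in sgUTX cells and rose in sgLuc cells to 72.5 and 75.8 CPM, against 16.1 and 17.3 CPM with DMSO (difference -2.82 ± 0.14, adjusted p = 3.02e-17). ATF3, CEBPE and CCND3 likewise fell in sgUTX and rose in sgLuc cells, with differences of -2.53, -1.81 and -1.53. For MPO, TLR8 and NIPA1 the difference was not called (-0.25, 0.02 and -0.05). That of MPO was called with the replicate block (-0.26, adjusted p = 0.0262) and without DMSO replicate 1 of sgLuc (-0.50, adjusted p = 0.0292). No difference is given for genes with a few counts in the vehicle libraries.

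**Figure D5:**
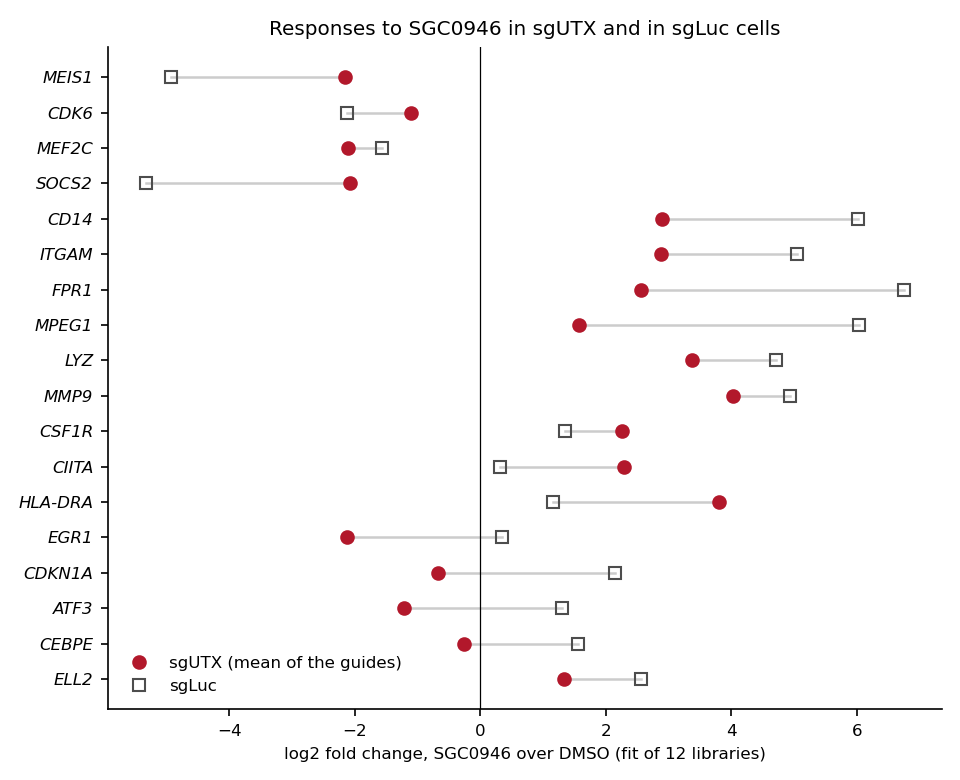
Log2 fold change (SGC0946 over DMSO, fit of 12 libraries) of 18 genes in sgUTX cells (filled circles, mean of the guides) and sgLuc cells (open squares), joined by a line. CD14 lies at 2.90 in sgUTX and 6.01 in sgLuc cells, and EGR1, CDKN1A, ATF3 and CEBPE lie left of 0 in sgUTX and right of 0 in sgLuc cells.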

How the data were processed

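RNA-seq of 12 OCI-AML2 libraries, 2 in each of 6 groups of guide and treatment, was used. Total RNA was made into libraries with the NEBNext Ultra kit, which does not mark strand, and sequenced as 150-base pairs, per the labels' protocols. The authors deposited 1 table of raw counts per Ensembl gene. STAR 2.5.1b and the hg19 build are named in the submitters' processing notes, while no counting tool or strand setting is given in the sources used here. All 12 columns were matched to samples by name. Symbols and gene overlaps were taken from GENCODE 29, which is not of the hg19 build, so the build behind the counts remains uncertain and no gene coordinates are printed for them. Promoters and their positions are from the RefSeq table (GRCh38.p14), 250 bases before to 50 after the start, and matching was by symbol. Other short motifs were searched in the same and other gene sets and are not printed. Count tables without strand cannot separate overlapping or antisense genes, and copies in multigene families may share reads.

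The 8 sgUTX libraries were fitted with edgeR 4.0.16 (R 4.3.3, limma 3.58.1) as guide plus treatment, after filterByExpr and TMM scaling, with quasi-likelihood F-tests (two-sided, robust) and with Benjamini-Hochberg adjustment over all 14483 genes kept. Genes with adjusted p under 0.05 were called. A model with 4 means, 1 per guide and treatment, gave the response with each guide and the difference sgUTX_4 minus sgUTX_2. A model with 6 means over all 12 libraries (15060 genes) gave the difference sgUTX minus sgLuc. CPM were computed from deposited counts, library totals and TMM factors of the 12 libraries. Each model was first tested on simulated data. Replicates differed by more than sampling (chi-square per gene 2.85 to 6.29, beside 1 for pure sampling noise), and each stayed a library of its own.

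The libraries and the 34 gene lists were chosen with earlier results of these data known. Named genes were the 15 largest rises and 15 largest falls called, with a mean of at least 5 CPM in the higher group, the same sign with each guide and no overlap of treatments. To these came the 10 genes with the smallest p for the difference between guides, the 10 largest differences from sgLuc at 5 CPM or more, members of the lists, KDM6A and DOT1L. Of these a part is printed, and some genes are not reported here. Alternatives were other scaling, DESeq2 1.42.0, other count filters, a replicate block, no guide covariate, other sets of libraries and leaving out each library.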

Additional observations from a re-analysis of the deposited data

Results flagged for a closer look

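Among genes named above, 314 groups of 4 libraries were examined for 1 library far from the other 3. In all, 13 groups had one, no more than the 1 in 20 or so that chance gives. Each group holds both guides, whose levels differ for some genes. Of the 13 stray libraries 5 were sgUTX_4 DMSO replicate 1. It was high for the sterol gene MSMO1 (34.8 CPM, against 18.8 to 20.2 CPM in the other 3 vehicle libraries) and for ELL2 (17.1 CPM, against 13.9 to 14.3 CPM). It was low for FGL2 (2.53 CPM, against 3.29 to 3.42 CPM), and it alone held reads of FCGR3B (0.0551 CPM) and LCN2 (0.11 CPM). In vehicle libraries of sgUTX_2, replicate 2 was low for FLT3 (72.2 CPM, against 82.3 to 84.3 CPM) and ITGB1 (105 CPM, against 117 CPM), and replicate 1 was low for RUNX2 (53.6 CPM, against 62.7 to 64.5 CPM) and high for NT5C3A (50.1 CPM, against 40.2 to 41.8 CPM). In treated libraries, CCND3 stood high in sgUTX_2 replicate 2 at 397.5 CPM, NIPA1 in sgUTX_2 replicate 1 at 28.1 CPM and RAC2 in sgUTX_4 replicate 1 at 307 CPM, and SLC29A1 was low in sgUTX_4 replicate 2 at 190 CPM.

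The responses of the guides differed for EPX (difference of log2 fold changes, sgUTX_4 minus sgUTX_2, 1.21) and MMRN1 (-0.74). Those of sgUTX and sgLuc cells differed for 5991 genes, 115 of the 157 named here among them. The difference, sgUTX minus sgLuc, was negative for the monocyte genes CD14 (-3.11), MPEG1 (-4.46), FPR1 (-4.19), FCN1 (-4.33) and C5AR1 (-4.37) and positive for CSF1R (0.91). Genes of signalling and the cell cycle with a negative difference were EGR1 (-2.47), CDKN1A (-2.82), ATF3 (-2.53), CEBPE (-1.81) and CCND3 (-1.53). It was positive for MEIS1 (2.77), CDK6 (1.01), SOCS2 (3.25), HLA-DRA (2.65) and CIITA (1.98) and negative for MEF2C (-0.56).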

How the results depend on the processing

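Among genes named here, no called change turned to the other direction under the alternatives run. The direction of other genes and of list medians was not compared. The number of genes called for SGC0946 in sgUTX cells, 5631, stayed within 1.5 times of itself throughout (4671 with no guide covariate, 5293 with a replicate block, 4889 to 5420 without 1 library at a time), and the share of higher calls lay between 48.1% and 52.6%. With sgUTX_4 alone the number was 2485 to 4026 when 1 library was left out, against 3746. The difference between guides, 2 genes with all 8 libraries, gave 5 genes with DESeq2, 48 with no filter on low counts, 11 with the replicate block, 10 in a fit of all 12 libraries in 6 groups and 0 to 27 without 1 library at a time; the cause was not tested. Of the values of named genes for SGC0946 under these settings, 2606 kept their side of the threshold, 41 lost it and 20 gained it. Replicate numbers did not pair the libraries: deviations of same-numbered libraries from their group means correlated at -0.327 with sgUTX_2 and 0.185 with sgUTX_4. The crossed pairing of sgUTX_2, chosen after seeing the data, called 5138 genes with that guide, against 3441 in the straight block and 3822 without a block. Of the medians of gene lists under these settings 543 moved by less than the spread between libraries and 35 by more. With 2 libraries per group, genes of few counts carry wide errors.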
